A study of Mus musculus with 16 samples.

Results

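The voltage-gated sodium, voltage-gated calcium, HCN and TRP channel genes of the dorsal raphe nucleus (DRN) comprised 46 of the 14504 genes with normalized counts. They were taken by gene symbol alone, as the genes for sodium channel pores and beta subunits (Scn), calcium channel alpha1, alpha2delta, beta and gamma subunits (Cacn), the HCN channels (Hcn) and the canonical, melastatin and vanilloid TRP channels (Trpc, Trpm, Trpv). By role they were 7 sodium channel pores, 4 sodium channel beta subunits, 8 calcium channel pores, 3 alpha2delta subunits, 4 calcium channel beta subunits, 6 gamma subunits, 4 HCN channels, 5 TRPC channels, 4 TRPM channels and 1 TRPV channel. All 46 were protein coding, and none had fewer than 186 reads in any library. A further 19 genes of these families in the annotation, among them Scn4a, Scn10a, Cacna1s, Trpc6 and Trpv1, were not analysed here.

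RNA was sequenced from punches of the DRN of male C57BL/6 mice aged 10 to 12 weeks, with 1 mouse in each of 16 libraries. Controls were intact mice housed alone for 5 days, whereas the other mice had lived through 30 days of chronic social defeat by aggressive CD1 males and were divided by the clustering of their behaviour into a passive (PS) and an active (AS) coping class. Every mouse received an injection of saline or of 2 mg/kg dexamethasone (DEX), a synthetic agonist of the glucocorticoid receptor, and its brain was taken 6 h later. The groups held 3 control saline, 3 control DEX, 2 PS saline, 3 PS DEX, 3 AS saline and 2 AS DEX libraries. The study had left out DEX-treated libraries of PS and AS mice that were low in Tph2, the serotonin synthesis enzyme. Its methods count more DRN libraries than the 16 used here. The Tph2 exclusion does not account for the libraries absent from the control and saline groups.

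Sodium channels carry the upstroke of the action potential, and their beta subunits set surface density and gating. Calcium channels couple depolarization to transmitter release, gene transcription and pacemaking, with alpha2delta and beta subunits that bring the pore to the membrane. HCN channels open on hyperpolarization, and TRP channels are cation channels gated by lipids, receptors, calcium or temperature. Serotonin neurons of the raphe are slow pacemakers in which such currents shape firing. All values below come from bulk tissue, in which fewer cells of a type and less RNA per cell cannot be told apart.

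Levels were compared between genes as the normalized count per kb of transcript, averaged over the 16 libraries. The median channel gene stood at 468 per kb, against 262 for all listed genes, and 29 of the 46 lay above the latter. The top places were held by small auxiliary subunits. Scn2b, a beta subunit that binds sodium channel pores, stood at 3994 ± 298 per kb (SD, n = 16). Cacng7, a transmembrane AMPA receptor regulatory protein (TARP), stood at 2629 ± 547 per kb, and Hcn2, the leading pacemaker channel here, at 2386 ± 427 per kb.

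**Figure D1:**
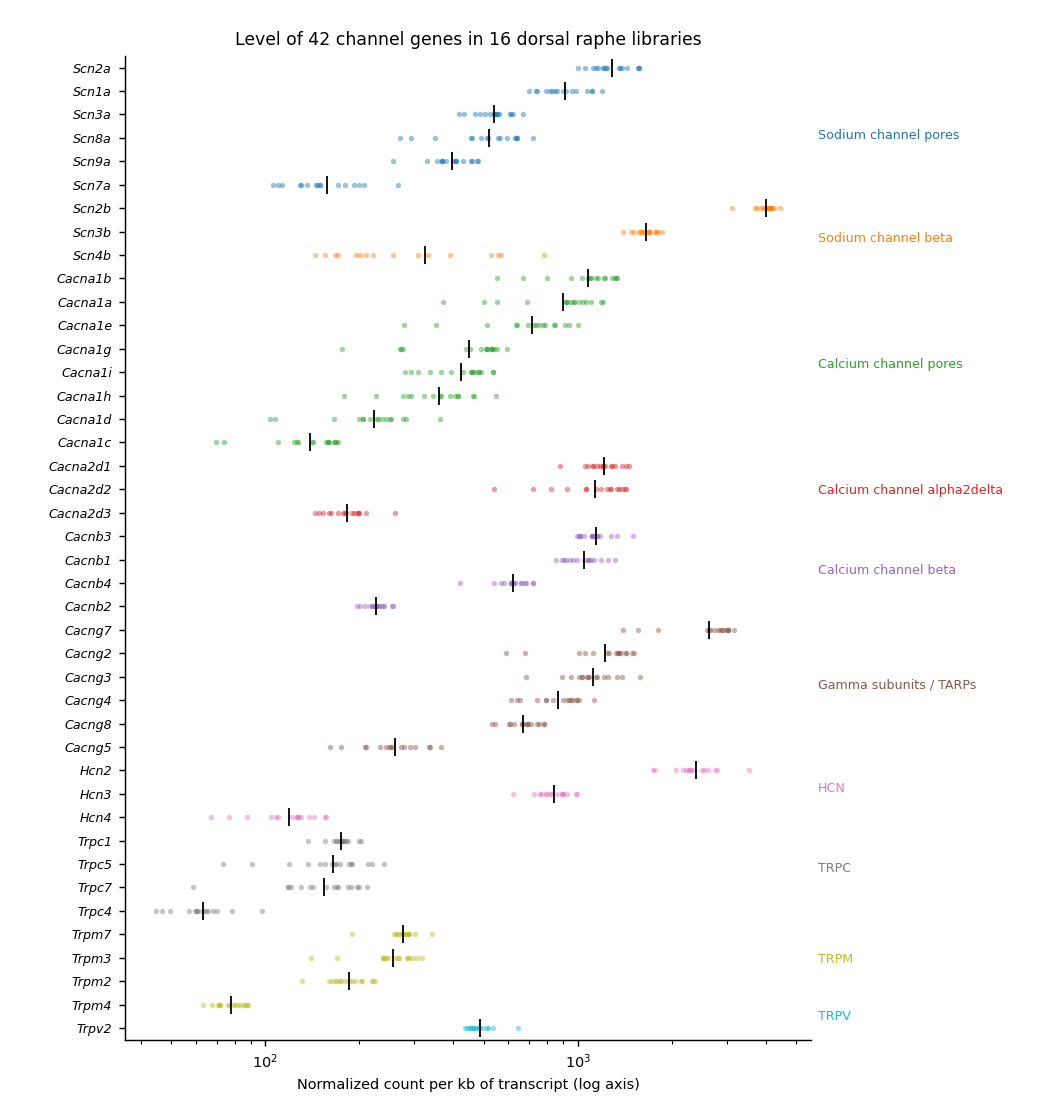
Level of 42 of the 46 channel genes as normalized count per kb of transcript on a log axis, with 1 point per library (n = 16), a black bar at the mean and colours by subunit group. The sodium channel beta subunit Scn2b sits highest at 3994 per kb, and among the TRPC channels Trpc4 stands at 63.1 per kb.

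Among sodium channel pores, the order per kb was Scn2a (1290), Scn1a (910), Scn3a (540), Scn8a (520), Scn9a (397) and Scn7a (158) for the 6 pores named here. The neuronal pores Scn2a and Scn1a thus led, and the ranges of Scn3a (416 to 669) and Scn8a (270 to 718) overlapped over the libraries. Among calcium channel pores, the presynaptic P/Q-type and N-type channels Cacna1a (899) and Cacna1b (1082) and the R-type channel Cacna1e (713) led per kb. They were followed by the low-threshold T-type channels Cacna1g (449), Cacna1i (423) and Cacna1h (360). The L-type channels Cacna1d (223) and Cacna1c (139), of which Cacna1d opens at lower voltage and serves pacemaking, came last.

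Of the alpha2delta subunits, the gabapentin-binding Cacna2d1 (1211 per kb) and Cacna2d2 (1135) stood above Cacna2d3 (183). The beta subunits were led by Cacnb3 (1141) and Cacnb1 (1046), ahead of Cacnb4 (621) and Cacnb2 (226). The 6 listed gamma genes are TARPs, which traffic AMPA receptors rather than form calcium channels, and ranged from Cacng5 (260) to Cacng7 (2629). After Hcn2, Hcn3 stood at 839 per kb and Hcn4 at 119. Of the TRP channels, Trpv2 stood at 487 per kb, Trpm7, a channel fused to a kinase, at 276, Trpm3 at 256 and Trpm2 at 185, and the 5 TRPC channels lay between 63.1 (Trpc4) and 175 (Trpc1).

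The subunit groups differed in how far a gene varied between libraries. The ratio of the highest to the lowest library had a median of 3.16 over the calcium channel pores and 1.53 over the calcium channel beta subunits, against 2.10 over all 46 genes and 1.74 over all genes with no library at 0. Scn4b, the beta subunit of fast-spiking neurons, varied most, by 5.37 times. It was highest at a normalized count of 3878 in the control saline library con_sal_102 and lowest at 722 in PS DEX library 64. Its remaining control libraries stood at 972 and 1539.8 after saline and at 2760.4, 2631 and 1049.8 after DEX, so the spread lay within groups. Cacnb2 varied least, by 1.30 times.

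Library depth ran from 38207157 to 62447298 reads in the listed genes. Fkbp5, a direct glucocorticoid receptor target, was at 1241 to 1536 in the 8 saline libraries and 5578 to 6958 in the 8 DEX libraries, so every library matched its treatment label. Tph2 was between 91764 and 182191 in all 16. Marker lists were read in the DEX average by limma, where 4.31% of all genes were called, 2.78% higher and 1.53% lower. Myelin had 4 of 10 genes called lower and microglia 3 of 9 listed. Endothelium had 1 of 8 lower and mural cells 1 of 6. Of 6 oligodendrocyte precursor genes 1 was called higher and 1 lower, and of 9 astrocyte genes 1 higher. No call was made among 11 serotonin neuron genes or 10 pan-neuronal genes. The lists for dopamine, GABA, glutamate and motor neurons, ependymal cilia and choroid plexus also had none. The 5 long noncoding RNAs Malat1, Neat1, Meg3, Miat and Kcnq1ot1, which stay in the nucleus, were scored in each library as their mean deviation from the gene mean on the log2 scale. This nuclear RNA score was -1.62 in the control saline library con_sal_104, -0.92 in AS saline 40, -0.56 in the control DEX library con_dex_116 and -0.52 in con_sal_114. It lay between 0.09 and 0.81 in the other 12. The mean deviation of 80 cytosolic ribosomal protein genes was 0.33 in con_sal_104, 0.83 in AS saline 40, 0.26 in con_dex_116 and 0.36 in con_sal_114. This ribosomal score was -0.26 to 0.03 in the other 12. Comparisons were not repeated with the ribosomal score, and the 2 scores were not told apart.

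The calcium channel pores followed the same 4 libraries. Their mean log2 deviation was -0.78 in con_sal_104, -0.98 in AS saline 40, -0.27 in con_dex_116 and -0.41 in con_sal_114, and between 0.02 and 0.39 in the other 12. For 6 of the 8 pores all 4 libraries lay below all 12 others, and this held for 11 of the 46 channel genes, against 6.79% of all listed genes. The mean over the 4 was lower than that over the 12 for 40 of the 46 genes, against 51.1% of all genes. Among the sodium channel pores 7 of 7 had the lower mean, and among the sodium channel beta subunits 2 of 4. The calcium channel beta subunits had 3 of 4 lower, and their mean deviation over the 4 genes was -0.11 to 0.12 in every library. Single beta subunits moved in opposite directions within that mean. In con_sal_104 Cacnb4 had its lowest value of the 16 libraries (3756), whereas Cacnb3 and Cacnb1 had their highest (6042 and 5965). The channel genes had a median exon length of 8376 bases against 4039 for all genes. The slope of a library's deviations on log2 length was 0.010 in con_sal_104, -0.019 in AS saline 40, 0.002 in con_dex_116 and -0.039 in con_sal_114. It was -0.047 to 0.042 in the other 12, and a link of length to the 4 libraries was not tested.

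**Figure D2:**
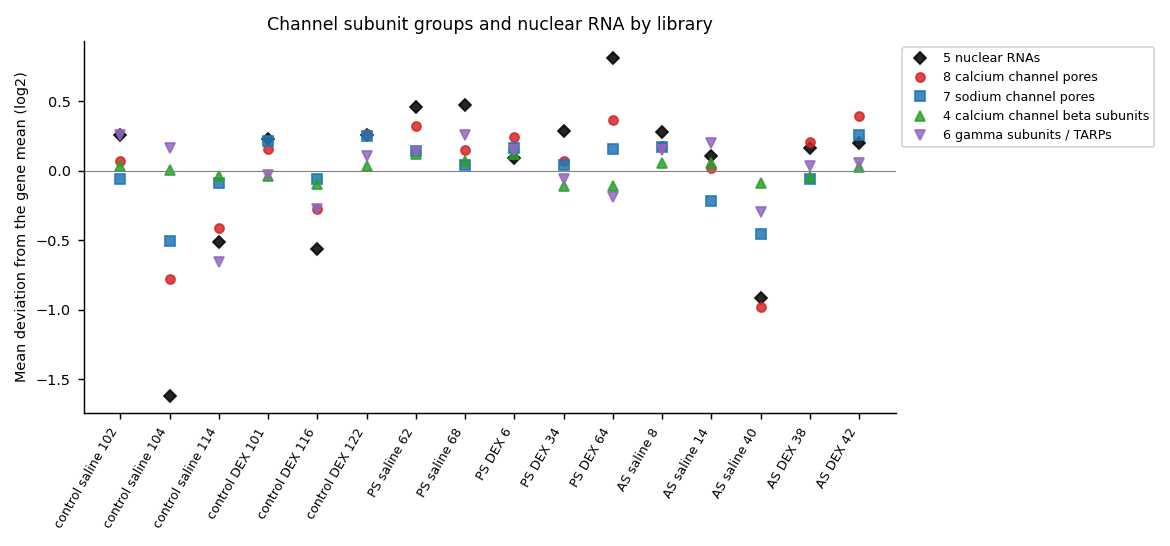
Mean deviation from the gene mean (log2) for each of the 16 libraries, shown for 5 nuclear RNAs, 8 calcium channel pores, 7 sodium channel pores, 4 calcium channel beta subunits and 6 gamma subunits. The calcium channel pores and the nuclear RNAs are lowest in the same 4 libraries, and the mean of the 4 beta subunits stays within -0.11 to 0.12.

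These 4 libraries were 2 of 3 control saline, 1 of 3 control DEX and 1 of 3 AS saline libraries, and none came from PS mice or from AS DEX mice. Each comparison below was therefore repeated with the nuclear RNA score as a covariate and without the 2 lowest libraries, con_sal_104 and AS saline 40. Across the 16 libraries, the 28 pairs of calcium channel pores had Pearson correlations of 0.68 to 0.97 with a median of 0.87, and the 15 pairs of gamma subunits a median of 0.71. Pairs within the TRPC family had a median of -0.05. These correlations share the libraries and their RNA composition and are given as a description.

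The first question was which channel genes differed 6 h after DEX, averaged over the 3 phenotypes. Of the 46 genes, Scn7a was called higher and no gene lower at an adjusted p under 0.1 (limma, Benjamini-Hochberg over all 14504 genes), beside 4.31% of all genes called, 2.78% higher and 1.53% lower. None of the 46 had all 8 DEX libraries on 1 side of all 8 saline libraries, against 1.88% of all genes. At an unadjusted p under 0.05 there were 7 channel genes, 5 higher and 2 lower, a share near the 14% of all genes. The median difference of the channel genes was 0.09 on the log2 scale with 30 of 46 positive, against -0.00 and 49.4% for all genes. The median was 0.02 with 26 positive under the nuclear RNA covariate and 0.01 with 24 positive without the 2 lowest libraries. Leaving out 1 library gave medians from 0.04 (without PS saline 62, PS DEX 6) to 0.14 (without con_sal_102), and 0.05 without con_sal_104, AS saline 40 or AS DEX 42.

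Scn7a encodes Nax, a sodium-sensing relative of the sodium channels that is known from glia and is not voltage gated, at chr2:66673425-66784914 on the minus strand of GRCm38. Its normalized count, given here and below in the order of library number, was 808, 778 and 1097 in control saline and 1317, 1415 and 1459.7 in control DEX libraries. In PS mice it was 1258 and 829 after saline and 1068, 1514 and 1952 after DEX. In AS mice it was 996, 954 and 946 after saline and 1077 and 1098 after DEX. The DEX libraries lay wholly above the saline libraries within controls and within AS mice and overlapped them in PS mice through saline library 62 and DEX library 6.

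The average DEX difference of Scn7a was 0.45 ± 0.13 on the log2 scale (SE, 1.37-fold, 95% interval 0.18 to 0.72, limma adjusted p = 0.079). Control mice had a difference of 0.66, PS mice of 0.52 and AS mice of 0.17. The call was kept by edgeR (adjusted p = 0.074) and DESeq2 (0.017) but did not survive the removal of 1 library for 12 of the 16 libraries, with differences of 0.35 to 0.55 and adjusted p of 0.015 to 0.29. It was also lost with the nuclear RNA covariate (0.41, adjusted p = 0.13) and without the 2 libraries lowest in nuclear RNA (0.42, adjusted p = 0.18). The summed count of 9 astrocyte markers was 123814 to 159158 in saline and 132182 to 147862 in DEX libraries, and 1 of the 9 was called higher.

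The next 3 genes by p were the calcium channel pores Cacna1h, Cacna1d and Cacna1e, none of which was called. Cacna1h, a T-type pore at chr17:25374285-25433783, was at 3538, 2209 and 2862 in control saline and 3950.1, 2793 and 4052 in control DEX libraries. It was at 4042 and 2688 in PS saline, 3813, 3576 and 4504 in PS DEX, 3371, 3142 and 1749 in AS saline and 4558 and 5351 in AS DEX libraries. Both AS DEX libraries were above every other library, and saline and DEX overlapped in controls and PS mice.

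The average difference of Cacna1h was 0.50 ± 0.16 (log2, 1.41-fold, limma adjusted p = 0.13). Cacna1d, the low-threshold L-type pore at chr14:30039939-30491455, stood at 2599, 1303 and 2091 in control saline, 2889, 2517 and 3191 in control DEX, 3164 and 2871 in PS saline and 2977, 3472 and 4582 in PS DEX libraries. In AS mice it was 2725, 2601 and 1355 after saline and 3078 and 3549 after DEX. The lowest values were those of con_sal_104 and AS saline 40. Its difference was 0.49 ± 0.17 (log2, adjusted p = 0.18).

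Cacna1e, the R-type pore at chr1:154390731-154884501, was at 16087, 7010.2 and 12913 in control saline and 19775, 17490.5 and 23733 in control DEX libraries. It was at 21418 and 18969 in PS saline, 21161, 19476 and 25238 in PS DEX, 18262, 16019.6 and 8893 in AS saline and 18547 and 22967 in AS DEX libraries. DEX lay above saline without overlap in controls and in AS mice, and the lowest values were again con_sal_104 and AS saline 40. The difference was 0.51 ± 0.18 (log2, adjusted p = 0.20).

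With the nuclear RNA covariate, the differences of these 3 pores fell in size and in error and all 3 were called higher: Cacna1d at 0.31 ± 0.07 (adjusted p = 0.025), Cacna1e at 0.32 ± 0.08 (0.039) and Cacna1h at 0.35 ± 0.09 (0.069). Without the 2 lowest libraries they were 0.29, 0.29 and 0.34 and none was called (adjusted p = 0.20, 0.18 and 0.20). DESeq2 called the 3 pores beside Scn7a, and edgeR called Scn7a alone. The share of all genes that each tool called is not given here. Both nuclear RNA settings were chosen after the values were seen.

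**Figure D3:**
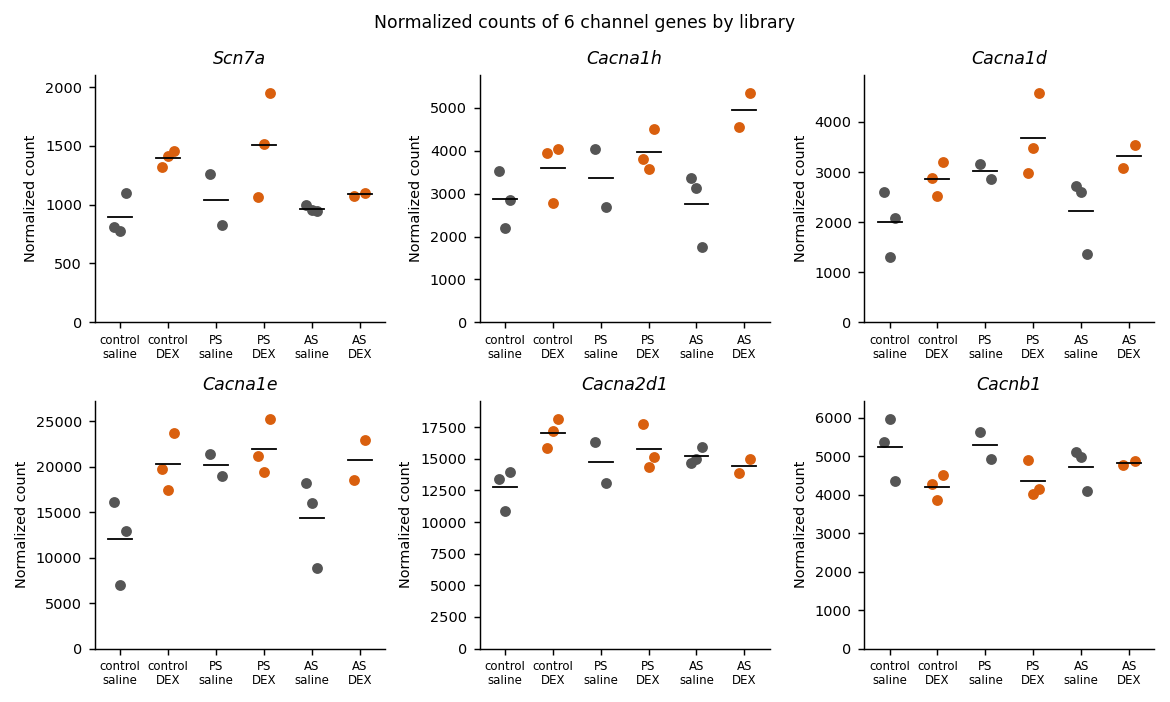
Normalized count of Scn7a, Cacna1h, Cacna1d, Cacna1e, Cacna2d1 and Cacnb1 in each library, with saline in grey, DEX in orange and a black line at the group mean (n = 2 or 3 per group). Scn7a DEX libraries are above saline in controls and AS mice, and the lowest points of Cacna1d and Cacna1e are con_sal_104 and AS saline 40.

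The sequences before the start sites of the members just described are shown because glucocorticoid receptor binding sites and GC boxes are the motifs such promoters are searched for. RefSeq promoter windows (GRCm38.p6, 250 bases before to 50 after the start) were found for 34 of the 46 genes, in 48 windows, and Cacna1h had none there. The 250 bases before the start are printed in lower case, 5′ to 3′ on the gene's strand, with the receptor half-site AGAACA and the GC box GGGCGG, on either strand, in capitals. They lie at chr2:66784911-66785160 for Scn7a, chr14:30491157-30491406 for Cacna1d and chr1:154725921-154726170 for Cacna1e, all on the minus strand. The Cacna1d and Cacna1e windows belong to starts inside the annotated spans of those genes. The sequence before the outermost annotated start of each is not shown.
Scn7a: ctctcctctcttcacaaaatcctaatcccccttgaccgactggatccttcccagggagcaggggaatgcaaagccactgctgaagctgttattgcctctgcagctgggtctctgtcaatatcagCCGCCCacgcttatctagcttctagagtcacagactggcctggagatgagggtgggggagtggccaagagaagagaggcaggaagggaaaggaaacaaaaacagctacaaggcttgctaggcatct
Cacna1d: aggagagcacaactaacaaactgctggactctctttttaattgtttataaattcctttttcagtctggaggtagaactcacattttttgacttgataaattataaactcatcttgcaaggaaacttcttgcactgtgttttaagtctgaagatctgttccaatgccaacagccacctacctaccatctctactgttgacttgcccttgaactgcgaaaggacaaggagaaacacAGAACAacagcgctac
Cacna1e: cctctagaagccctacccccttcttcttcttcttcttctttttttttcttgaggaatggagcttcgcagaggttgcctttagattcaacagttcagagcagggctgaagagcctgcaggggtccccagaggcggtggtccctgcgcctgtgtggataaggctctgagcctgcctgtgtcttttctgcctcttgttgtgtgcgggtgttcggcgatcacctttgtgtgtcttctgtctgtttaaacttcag
The Scn7a stretch held 1 GC box and no half-site. That of Cacna1d held 1 half-site starting 16 bases before the start site of that window, and that of Cacna1e held neither. A second Cacna1d window at chr14:30353487-30353736, also inside the gene's annotated span, had a GC content of 86.4% and 5 GC boxes. Over all 32851 windows the half-site was present in 19.0% and the GC box in 35.7%. Of the 48 channel windows, 9 (18.8%) held the half-site and 19 (39.6%) the GC box, and none held the full palindrome, AGAACA and TGTTCT with any 3 bases between them, which was in 0.00913% of all windows. These matches are descriptions of letters in the window and not of binding.

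The remaining genes past an unadjusted p of 0.05 in the average were Cacng5, Cacnb1 and Trpm3. Cacng5, a TARP, was lower by 0.34 ± 0.14 (log2, adjusted p = 0.30), and Cacnb1, the beta subunit with 80 exon bases shared with an opposite-strand transcript, by 0.18 ± 0.08 (adjusted p = 0.31). Trpm3, a channel activated by pregnenolone sulfate and heat, was higher by 0.30 ± 0.13 (adjusted p = 0.33). By role, the average was positive for 8 of 8 calcium channel pores (median 0.27), 7 of 7 sodium channel pores (0.15) and 3 of 3 alpha2delta subunits (0.13). It was negative for 3 of 4 sodium channel beta subunits and 4 of 6 gamma subunits, and divided evenly among beta subunits and HCN channels. With the covariate the medians were 0.10 for both pore groups (8 of 8 and 7 of 7 positive) and 0.03 for the alpha2delta subunits (2 of 3). Without the 2 lowest libraries they were 0.09 for the calcium channel pores (6 of 8 positive), 0.08 for the sodium channel pores (7 of 7) and -0.01 for the alpha2delta subunits (1 of 3).

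**Figure D4:**
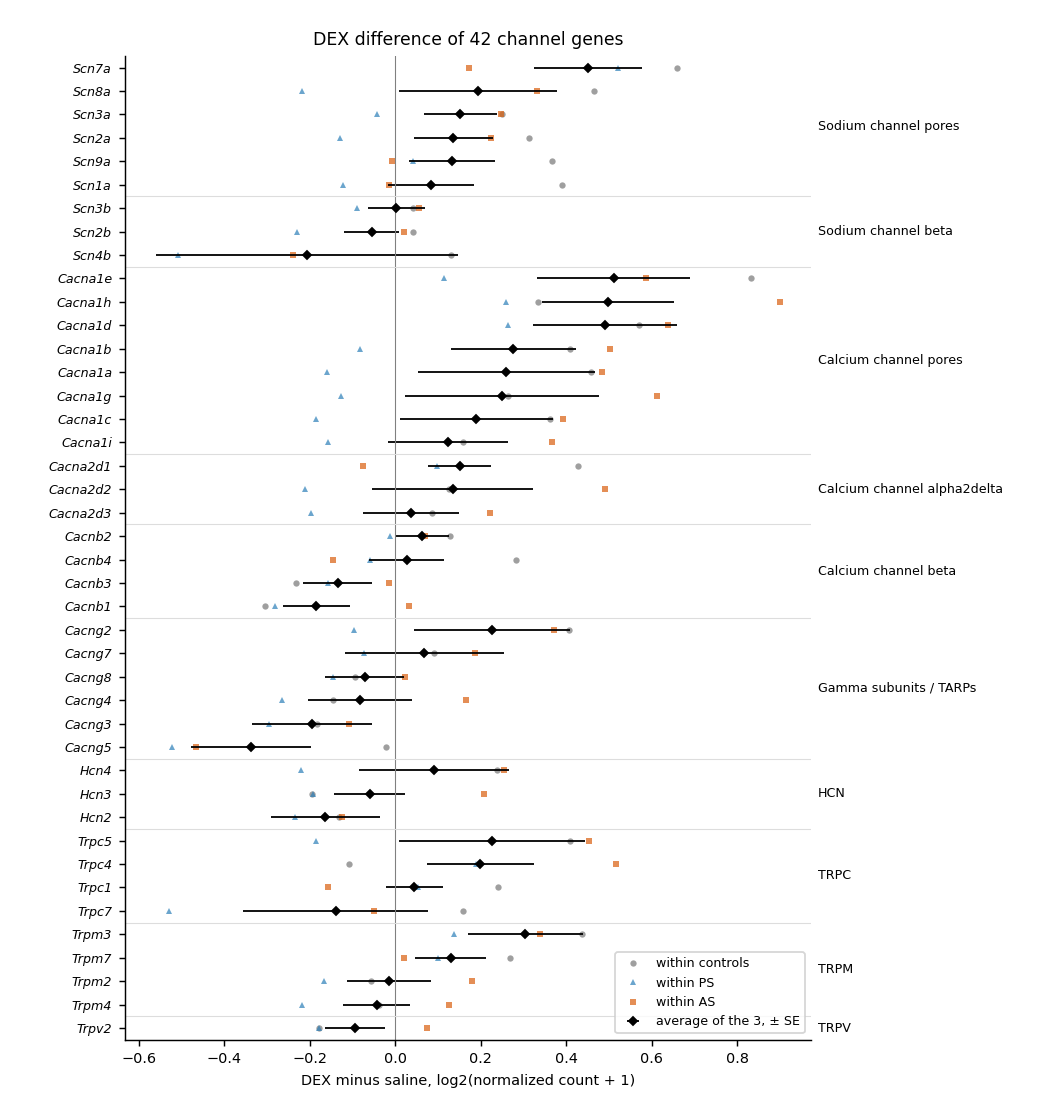
DEX minus saline difference of 42 of the 46 channel genes on the log2(normalized count + 1) scale within controls, PS and AS mice (coloured points) and averaged (black diamonds ± SE), ordered by subunit group. The 8 calcium channel pores have positive averages of 0.12 to 0.51, and most PS points lie to the left of the control and AS points.

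Within controls, limma called none of the 46 genes, beside 1.26% of all genes, while 8 channel genes (7 higher) had an unadjusted p under 0.05, against 12.1% of all genes. DESeq2 called 2, Scn7a and Cacna2d1, and edgeR called none, with 10 and 8 genes at an unadjusted p under 0.05. For 8 genes every DEX library was above every saline library, against 8.51% of all genes. Among them were Cacna1e, Scn1a, Scn2a, Scn7a, Cacna2d1, Cacnb4 and Trpc1. For none did DEX lie wholly below saline, against 7.43%.

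Cacna2d1 was at 13376, 10909 and 13914 in control saline and 15886, 17192 and 18126 in control DEX libraries. It was at 16358 and 13101 in PS saline, 17724, 14354 and 15128 in PS DEX, 14687, 14991 and 15948 in AS saline and 13899 and 14986 in AS DEX libraries. DEX lay above saline without overlap in controls and overlapped it in both stressed classes. The difference in controls was 0.43 ± 0.12 (log2, 1.35-fold, limma adjusted p = 0.16).

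In the same mice Scn7a was higher by 0.66 ± 0.20, Cacna1e by 0.83 ± 0.29 and Scn1a, the Nav1.1 pore of interneurons, by 0.39 ± 0.16 (adjusted p = 0.20, 0.28 and 0.36). Cacnb1 was lower by 0.30 ± 0.13 (adjusted p = 0.36), at 5369.5, 5965 and 4365 in saline and 4267, 3855 and 4512 in DEX libraries. All 8 calcium channel pores and 7 sodium channel pores had positive differences, with medians of 0.39 and 0.37. These became 0.04 (5 of 8 positive) and 0.24 (6 of 7) with the nuclear RNA covariate and 0.20 and 0.23 without the 2 lowest libraries.

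Within PS mice limma called none of the 46 genes, beside 0.703% of all genes, and 2 had an unadjusted p under 0.05, against 4.69% of all genes. EdgeR and DESeq2 also called none, with 2 and 3 genes at that unadjusted p. The differences were mostly negative, in 35 of 46 genes with a median of -0.15, and 4 of 4 HCN channels, 6 of 6 gamma subunits, 4 of 4 sodium channel beta subunits and 4 of 4 calcium channel beta subunits had negative differences. For 9 genes every DEX library lay below both saline libraries, against 10.1% of all genes, and for none above, against 11.2% (21.3% for either).

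In PS mice Scn7a was higher by 0.52 ± 0.22 (log2, limma adjusted p = 0.98), and Cacng5 was lower by 0.52 ± 0.25, at 966 and 1397 after saline and 956, 894 and 619 after DEX (adjusted p = 0.9999). The median over the 46 genes stayed at -0.15 without the 2 lowest libraries, neither of which was a PS library, and was -0.13 with the covariate. It ran from -0.22 without PS DEX 6 to -0.08 without PS DEX 34, and was -0.10 without PS DEX 64.

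Within AS mice limma called none of the 46 genes, beside 0.689% of all genes, with 2 at an unadjusted p under 0.05 (9.36% of all genes), and edgeR and DESeq2 likewise called none, with 2 each. Cacna1h was higher by 0.90 ± 0.28 (log2, 1.87-fold, adjusted p = 0.29). This difference was 0.72 ± 0.16 with the nuclear RNA covariate, where it was called (adjusted p = 0.079), and 0.60 ± 0.21 without the 2 lowest libraries (adjusted p = 0.54). Trpc4, a receptor-operated channel, was at 479, 504 and 397 in saline and 546 and 787 in DEX libraries, a difference of 0.52 ± 0.22 (adjusted p = 0.52). The libraries did not overlap, and AS DEX 42 was the highest of all 16.

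Cacna1d differed by 0.64 ± 0.30 and Cacna1b by 0.50 ± 0.26 in AS mice (log2, adjusted p = 0.53 and 0.55). For 8 genes DEX was wholly above saline, against 15.1% of all genes, and for 3 wholly below, against 14.8% (29.8% for either). All 8 calcium channel pores were positive, with a median of 0.54 that became 0.34 with the covariate and 0.15 without the 2 lowest libraries, 1 of which was the lowest AS saline library.

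The DEX difference had the same sign in all 3 phenotypes for 12 of the 46 genes, against 36.9% of all genes. It was positive throughout for 7 genes, among them Cacna1d, Cacna1e, Cacna1h, Scn7a, Trpm3 and Trpm7, and negative throughout for 5, among them Cacnb3, Cacng3, Cacng5 and Hcn2. The phenotypes share no libraries in this count.

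The second question was whether channel genes differed between stressed and control mice. After saline, limma called none of the 46 genes in PS against control, AS against control or AS against PS, and it called 0% of all genes in each. At an unadjusted p under 0.05 the counts were 4, 1 and 0 channel genes, against 7.67%, 2.39% and 3.41% of all genes. EdgeR and DESeq2 also called none, with 3, 2 and 0 and with 6, 1 and 0 genes at that unadjusted p. The direction was uneven in PS against control, where 40 of 46 differences were positive with a median of 0.25, against 51.0% and 0.01 for all genes. It was 0.07 with 28 positive under the covariate, and ran from 0.17 without con_sal_104 to 0.36 without con_sal_102.

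The 4 genes of PS against control with an unadjusted p under 0.05 were calcium channel pores. Cacna1e was higher by 0.83 ± 0.32, Cacna1b by 0.62 ± 0.26, Cacna1a by 0.81 ± 0.37 and Cacna1d by 0.65 ± 0.30 (log2, adjusted p = 0.57 each). Cacna1a, the P/Q-type pore, was at 11093, 6312 and 5741 in control saline and 13748 and 12119.9 in PS saline libraries. Cacna1b, the N-type pore, was at 10744, 6624 and 7929 in the former and 13226 and 12194 in the latter. The PS libraries lay above all controls in both genes, as they did for 11 channel genes in all, against 14.3% of all genes.

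The size of the PS saline difference depended on which nuclear RNA setting was used. All 8 calcium channel pores were positive with a median of 0.65, which was -0.02 with 3 of 8 positive under the covariate and 0.42 with 8 of 8 positive without the 2 lowest libraries. The 5 nuclear RNAs themselves differed by 0.85 (Neat1) to 1.43 (Malat1) in PS against control after saline (adjusted p = 0.57 each). A difference between phenotypes and one in nuclear RNA or ribosomal genes cannot be told apart here. Of the 3 control saline libraries, 2 were low in nuclear RNA and high in ribosomal genes, and no PS library was.

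In AS against control after saline the median was 0.07 with 30 of 46 positive, and its sign depended on single libraries. It ran from -0.06 with 16 positive without AS saline 8 to 0.18 with 36 positive without con_sal_102, was also below 0 without AS saline 14, con_sal_104 or con_sal_114, and was 0.17 without AS saline 40. The covariate gave -0.04 with 16 positive, and leaving out the 2 lowest libraries gave 0.09 with 35 positive. The calcium channel pores went from 7 of 8 positive to 0 of 8 with the covariate and 8 of 8 without the 2 lowest libraries. Cacna2d1 was higher by 0.26 ± 0.12 and Trpc1, a subunit of store- and receptor-operated channels, by 0.23 ± 0.11 (adjusted p = 0.998 each), both without overlap. Such non-overlap was seen in 2 channel genes upward, against 2.38% of all genes, and in 0 downward, against 2.11% (4.49% for either). In AS against PS after saline 41 of 46 differences were negative with a median of -0.23, and 10 genes lay wholly below, against 12.7% of all genes. The median was -0.08 with 10 positive without AS saline 40 and -0.13 with 10 positive under the covariate. Cacna1b was lower by 0.55 ± 0.26 and Cacna1a by 0.67 ± 0.37 (adjusted p = 0.73 each).

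After DEX limma called no channel gene in PS against control, AS against control or AS against PS, beside 0%, 0.00689% and 0% of all genes. None had an unadjusted p under 0.05, against 1.23%, 3.5% and 1.7% of all genes. EdgeR and DESeq2 also called none, and the 1 gene that reached that unadjusted p was Scn7a, with DESeq2 in AS against PS. The medians were 0.01, 0.08 and 0.06, and -0.08, 0.01 and 0.10 with the covariate. Without con_dex_116 the first 2 were -0.08 and -0.02, without con_dex_122 they were 0.09 and 0.14, and without PS DEX 6 the first and the last were -0.05 and 0.13. The second was 0.05 without AS DEX 42 and the last 0.03 without PS DEX 64. Scn1a was lower by 0.35 ± 0.18 in AS against control (adjusted p = 0.99), at 12390.4, 10717 and 11924 against 8256 and 10199.

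**Figure D5:**
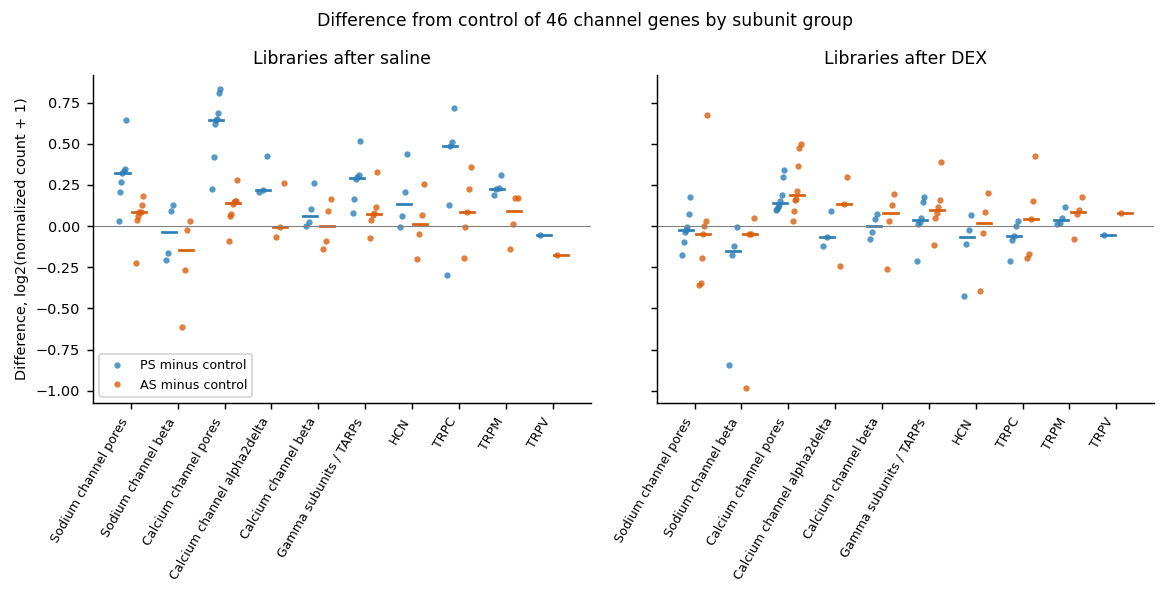
Difference of PS (blue) and AS (orange) from control mice on the log2(normalized count + 1) scale for the 46 channel genes, grouped by subunit, after saline (left) and after DEX (right), with 1 point per gene and a line at the group's median. The calcium channel pores of PS mice stand at a median of 0.65 after saline and 0.14 after DEX.

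With both classes and both treatments averaged, stress against control gave no call among the 46 genes, beside 0% of all genes, and none at an unadjusted p under 0.05, against 4.25% (limma). EdgeR and DESeq2 gave no call either, with 0 and 1 at that unadjusted p. The median was 0.08 with 38 of 46 positive. Cacna1d was higher by 0.34 ± 0.17, Cacng4 by 0.24 ± 0.12, Cacna1i by 0.26 ± 0.14 and Cacna1g by 0.41 ± 0.23, and Scn4b was lower by 0.66 ± 0.36 (log2, adjusted p = 0.75 each). With the covariate the median was -0.01 with 18 of 46 positive. The calcium channel pores were 8 of 8 positive (median 0.29), 3 of 8 (-0.03) with the covariate and 8 of 8 (0.25) without the 2 lowest libraries. The gamma subunits were 6 of 6 (0.13), 3 of 6 (0.06) and 6 of 6 (0.26) in the same order. Without those libraries the sodium channel pores were 4 of 7 positive (0.05) and the sodium channel beta subunits 1 of 4 (-0.05).

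The third question was whether the DEX difference depended on phenotype. Limma, edgeR and DESeq2 called none of the 46 genes in the 3 differences between DEX effects, and limma called 0% of all genes in each. At an unadjusted p under 0.05 limma had 1 gene in PS minus controls, 2 in AS minus controls and 0 in AS minus PS, against 2.1%, 4.02% and 2.9% of all genes, edgeR 1, 2 and 0, and DESeq2 2, 3 and 0. The DEX difference of Cacna2d1 was lower in AS mice than in controls by 0.50 ± 0.18 (log2, adjusted p = 0.94). That of Trpc1 was lower in AS mice by 0.40 ± 0.16 (adjusted p = 0.94). PS minus controls was negative for 39 of 46 genes with a median of -0.30, and for 8 of 8 calcium channel pores with a median of -0.44. Over the 46 genes it was -0.14 with the covariate and -0.20 without the 2 lowest libraries, and over the pores -0.09 (5 of 8 negative) and -0.26 (7 of 8). AS minus controls had a median of 0.02 with 26 positive, which ran from -0.20 without AS saline 40 to 0.14 without AS saline 8. AS minus PS was positive for 39 of 46 genes with a median of 0.32, which was 0.26 with the covariate and 0.17 without AS saline 40, and for 8 of 8 calcium channel pores with a median of 0.58, which stood at 0.36 with the covariate and 0.21 without the 2 lowest libraries, with 8 of 8 positive in both. The AS minus PS difference of Cacna1h, the pore with the smallest p, was 0.64 with a 95% interval of -0.20 to 1.48.

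Of 41 genes that act with these channels (fibroblast growth factor homologs and scaffolds of sodium channels, calcium channel regulators, the Nalcn complex, store-operated entry, intracellular release channels and other TRP genes), 34 were listed. In the DEX average 2 were called higher and 0 lower by limma, beside 2.78% and 1.53% of all genes. In controls 1 was called, beside 1.26% of all genes. At an unadjusted p under 0.05 there were 6 in the average and 5 in controls, against 14% and 12.1% of all genes. Itpr2, an inositol trisphosphate receptor that releases calcium from the endoplasmic reticulum, was at 871 to 1356 in the 8 saline libraries and 1750.4 to 1946 in the 8 DEX libraries, without overlap. Its difference was 0.58 ± 0.09 (log2, adjusted p = 0.0012), and in controls alone it was 0.68 ± 0.14 (adjusted p = 0.037). Stim1, the calcium sensor of store-operated entry, was higher by 0.17 ± 0.05 (adjusted p = 0.099), at 4641 to 5545 after saline and 5389 to 6382 after DEX. No other comparison called any of the 34 genes, with 0 to 5 at an unadjusted p under 0.05, against 1.23% to 9.36% of all genes.

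Exon bases were shared with another annotated gene by 13 of the 46 channel genes, 11 of them with a gene on the opposite strand. Cacna1d shared 589 bases with Chdh and Cacna1h 158 bases with Tpsg1. Reads from such stretches are of uncertain origin, since the sources used here do not say which strand setting the counter had.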

How the data were processed

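Poly(A) RNA of 16 libraries, 1 mouse each, was sequenced with a strand-specific kit. Per the labels and the study's methods, the authors trimmed reads with fastp 0.20.1, aligned them to GRCm38 with HISAT2 2.2.1, counted them with featureCounts (Subread 2.0, GENCODE vM22) and deposited a signal for each gene and library, the read count divided by 1 DESeq2 (1.36.0) size factor per library. Whole reads were recovered from these values for every gene at a tolerance of 0.01. Log2(normalized count + 1) was fitted with limma 3.58.1, with 1 mean for each of 6 groups over all 16 libraries and a mean-variance trend. P-values were adjusted over all 14504 genes and called under 0.1. Differences are on that log2 scale, whose pseudocount understates the change of low genes. EdgeR 4.0.16 and DESeq2 1.42.0 were run on the recovered reads, and the code was tested on simulated data. Limma p-values set a difference of group means against the spread between mice within groups, pooled over all 6 groups and moderated by that trend. Transcript lengths, taken as the union of a gene's annotated exons, and exon overlaps came from GENCODE vM21. The members and gene lists were chosen with earlier results of these data known, and the nuclear RNA settings after the values were seen. Differences were named for genes called in any comparison, for those among the 5 smallest p in a DEX or stress comparison, and for pore-forming subunits. Library weights, TMM, other pseudocounts, a filter on low means and a removed length and GC trend were alternatives. Values of 4 channel genes are not reported here one by one.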

Additional observations from a re-analysis of the deposited data

How the results depend on the processing

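No paired analysis was possible because the library numbers name single mice and no number recurs between groups. Of the 46 channel genes, limma called 1 for DEX averaged over phenotypes. The count was 5 with library weights (Scn7a, Cacna1h, Cacna1d and Cacna1e higher, Cacnb1 lower), 4 with DESeq2, 4 with the length and GC trend removed (Scn7a, Cacna1h and Cacna1e higher, Cacnb1 lower), and, in settings chosen after seeing the data, 3 with the nuclear RNA covariate and 0 without the 2 libraries lowest in nuclear RNA. The settings also change how many of all genes pass. In AS against PS after saline, library weights put 2298 of all genes at an unadjusted p under 0.05, against 494 in limma without weights. The share of all genes under each setting is not set beside these counts or the edgeR and DESeq2 counts above. A rise in them is therefore not read as particular to channel genes. Leaving out 1 library gave 0 to 3 calls. There were 0 without con_sal_104, con_dex_101 or con_dex_122, PS saline 68, PS DEX 34 or 64, AS saline 14 or 40, or AS DEX 38 or 42, and 3 without con_sal_102 (Cacna1h, Cacna1d, Cacna1e) or con_sal_114 (Scn7a higher, Cacng5 and Cacng3 lower). There were 2 without PS saline 62 or AS saline 8, and 1 without con_dex_116, where it was Cacna1h, or PS DEX 6. The call of Scn7a remained without con_sal_114, PS saline 62, PS DEX 6 or AS saline 8. For DEX in controls the count of 0 was 2 with DESeq2 and 0 to 1 on leaving out a library, the 1 being Cacng3 at -0.55 without con_sal_114. In PS mice it was 1 with library weights (Cacnb1, -0.35). In AS mice it was 3 with library weights (Cacna1h among the 2 higher, Cacng5 lower) and 1 with the covariate. The sign turned for Cacna1d in PS against control after saline (-0.030 with the covariate) and for Hcn3 and Trpv2 in AS against control after saline (0.034 and 0.011 without the 2 lowest libraries). The cause was not tested. With 2 or 3 mice in a group, the median standard error of a channel gene within controls was 0.20 on the log2 scale, and differences of up to 0.83 (Cacna1e) were not called there.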
